A study of Mus musculus with 24 samples.

Results

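The genes described here are 10 core members of the Notch pathway, chosen by name: the receptors Notch1, Notch2 and Notch3, the ligands Dll1, Dll3, Dll4, Jag1 and Jag2, and the target genes Hes1 and Hey1. All 10 were found among the 21887 protein-coding mouse genes of the gene table, and none was left out by a filter. They were followed through ChIP-seq peak lists from 4 mouse small cell lung cancer lines kept at early passage. Lines 236L and 236R came from sgKdm6a RPP tumours and are called mutant lines, and lines 159-1 and 1014 came from sgControl RPP tumours, are wild type for Kdm6a and are called control lines. RPP is the tumour model shared by all 4 lines, in which the tumour suppressors Rb1, Trp53 and Rbl2 are inactivated, so the control lines carry those losses too. All cells were untreated and were collected 24 h after plating. The labels do not tell whether 236L and 236R arose in separate animals, and each genotype is represented by 2 lines. All 4 lines have lists of H3K4me1, H3K4me2 and H3K27me3, and both control lines also have a list of KDM6A itself.

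Notch receptors sit in the membrane of the receiving cell. A ligand of the Delta or Jagged type on a neighbouring cell leads to cleavage of the receptor, whose intracellular part enters the nucleus and, with the DNA-binding protein RBPJ and Mastermind coactivators, switches on repressors of the Hes and Hey families. In neuroendocrine lung cells Notch activity represses the neuroendocrine programme, and neuroendocrine small cell tumours are known for low Notch signalling. H3K4me1 marks enhancers, H3K4me2 marks promoters and enhancers, and H3K27me3 is the repressive mark of Polycomb complex PRC2. KDM6A is an H3K27 demethylase that also belongs to the complexes placing methyl groups on H3K4.

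For 8 of the 10 genes the promoter sequence was matched in the RefSeq promoter table of GRCm38.p6, the assembly also called mm10, and Hes1 and Hey1 had no entry. Each entry runs from 250 bases before the start site to 50 bases after it. The sequences below are of the 3 ligand genes whose H3K4me2 was shorter in both mutant lines by at least 2 kb (Jag2, Dll1, Dll3), of the ligand gene Jag1, whose cover was not shorter there, and of Notch1, the receptor gene whose start site carried H3K27me3 in both control lines. All 5 lie on the minus strand and are written 5′ to 3′. They are at chr12:112929446-112929745 (Jag2), chr17:15376883-15377182 (Dll1), chr7:28301736-28302035 (Dll3), chr2:137116471-137116770 (Jag1) and chr2:26503773-26504072 (Notch1). Capitals mark CAGCTG, an E-box, the kind of site that basic helix-loop-helix proteins bind, whose letters read the same on both strands.
Jag2: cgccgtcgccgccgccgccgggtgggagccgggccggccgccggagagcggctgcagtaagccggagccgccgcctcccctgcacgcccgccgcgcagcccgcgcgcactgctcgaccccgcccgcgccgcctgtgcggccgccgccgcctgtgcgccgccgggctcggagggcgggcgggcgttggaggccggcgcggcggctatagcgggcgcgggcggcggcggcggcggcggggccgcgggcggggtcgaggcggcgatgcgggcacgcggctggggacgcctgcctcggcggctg
Dll1: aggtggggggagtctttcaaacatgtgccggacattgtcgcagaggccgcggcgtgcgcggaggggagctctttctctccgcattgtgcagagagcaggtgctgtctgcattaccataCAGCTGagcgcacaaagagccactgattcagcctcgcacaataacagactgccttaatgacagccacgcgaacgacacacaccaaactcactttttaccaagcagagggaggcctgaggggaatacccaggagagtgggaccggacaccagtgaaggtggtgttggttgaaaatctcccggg
Dll3: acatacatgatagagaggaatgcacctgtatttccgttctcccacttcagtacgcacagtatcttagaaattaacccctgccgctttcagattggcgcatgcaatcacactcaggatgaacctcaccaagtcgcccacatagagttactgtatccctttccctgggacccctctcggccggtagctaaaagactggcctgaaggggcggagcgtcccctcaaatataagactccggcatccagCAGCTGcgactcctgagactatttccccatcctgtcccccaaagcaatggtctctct
Jag1: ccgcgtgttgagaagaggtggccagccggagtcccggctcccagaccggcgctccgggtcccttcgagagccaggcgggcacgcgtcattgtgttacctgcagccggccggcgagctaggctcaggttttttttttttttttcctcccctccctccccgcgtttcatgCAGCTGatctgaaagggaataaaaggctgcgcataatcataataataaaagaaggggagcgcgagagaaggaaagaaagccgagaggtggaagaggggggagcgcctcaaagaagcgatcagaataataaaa
Notch1: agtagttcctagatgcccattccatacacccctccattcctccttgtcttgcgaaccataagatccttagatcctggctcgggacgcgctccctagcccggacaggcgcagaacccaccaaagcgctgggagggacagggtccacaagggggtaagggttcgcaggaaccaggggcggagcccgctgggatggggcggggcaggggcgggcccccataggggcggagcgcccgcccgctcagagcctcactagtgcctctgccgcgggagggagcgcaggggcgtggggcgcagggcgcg

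CAGCTG was present in the promoters of Dll1, Dll3 and Jag1, 3 of the 8 genes, and in 16.3% of all 32851 promoters of the table. Dll1 had a second entry (chr17:15375774-15376073) without CAGCTG, and the entry at the end of the gene was used. The share over all promoters counts every entry of a gene. Its first base stood at position -132 in Dll1, -7 in Dll3 and -82 in Jag1, counted from the start site. TGGGAA, the core of the RBPJ site, was searched on both strands and was in none of the 8 promoters and in 25.6% of all promoters. The 8 promoters had a median GC content of 66%, against 52.7% over all promoters, with Dll3 lowest at 52% and Jag2 highest at 86%. They held a median of 22.5 CG dinucleotides, from 11 in Dll3 to 63 in Jag2, against a median of 7 over all promoters. These matches describe letters and not occupied sites.

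The measure in what follows is the length in kb that a library's merged peaks cover in the window of a gene, that is, its body and the 10 kb flanking it at either end. A gene was called higher or lower in the mutant lines if a gap of at least 2 kb parted the 2 genotypes, every line of 1 genotype lying above every line of the other. The gap is given as a separation, negative where the mutant lines lay below. With 2 lines against 2 the smallest p of an exact two-sided permutation test is 0.333, so by this test no difference here can pass 0.05, and each count of called genes is set beside the share of all 21887 genes called by the same rule. The lists hold no read counts, so depth is unknown, and a weaker library can give a shorter list. Total cover was 76.1 and 73.7 Mb for H3K4me2 in 236L and 236R, against 85.2 and 87.6 Mb in 159-1 and 1014. For H3K4me1 it was 119.8 and 109.2 Mb in the mutant lines, against 118.8 and 134.6 Mb in the control lines. For H3K27me3 it was 13.8 and 30.5 Mb in the mutant lines, against 45.4 and 110.3 Mb in the control lines. KDM6A covered 34.6 Mb in 159-1 and 27.02 Mb in 1014. No KDM6A list of 236L or 236R was used here, and the Kdm6a mutation could therefore not be checked. The 2 control H3K4me2 lists were deposited under names that exchange 159-1 and 1014 relative to their sample labels. The labels are used here, and the comparison of genotypes does not change with this choice.

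Line 236L stood apart from the other 3 in marker genes of cell types, read within 2.5 kb of both gene ends. At 10 neuroendocrine markers, among them Insm1, Chga and Dll3 itself, H3K4me2 was present at all 10 in every line and summed to 34.1 kb in 236L and 51.0 kb in 236R, against 50.2 and 53.8 kb in 159-1 and 1014. H3K27me3 lay at 8 of these 10 in 236L (19.5 kb in all) and at 0 of 10 in each of the other 3 lines. At 4 epithelial markers H3K27me3 was present at all 4 in 236L (6.13 kb) and at none in the other lines. At 7 macrophage markers, among them Ptprc, Csf1r and Spi1, H3K4me2 was present at all 7 in 236L (32.1 kb), and at 3 of 7 in 236R (3.51 kb), 159-1 (4.88 kb) and 1014 (5.10 kb). Ptprc, Adgre1 and Itgam had no H3K4me2 in those 3 lines. H3K27me3 was at 0 of the 7 macrophage markers in 236L and at 3 of 7 in 236R (6.63 kb), against 3 of 7 in both 159-1 (10.0 kb) and 1014 (9.79 kb). H3K4me2 at 4 endothelial markers summed to 4.76 and 3.08 kb in 236L and 236R, against 2.43 and 3.15 kb in the control lines. At 5 fibroblast markers it summed to 8.13 and 10.7 kb in the mutant lines and 5.62 and 6.21 kb in the control lines, and at 4 T cell markers to 3.30 and 3.43 kb in the mutant lines and 3.01 and 2.13 kb in the control lines. In 236L 38.9% of all bases with H3K27me3 also had H3K4me2, against 11.5% in 236R, 5.52% in 159-1 and 4.61% in 1014. The part of these differences in the values of the Notch genes was not tested, and values are given for each line and with 236R alone. In bulk chromatin a mark on some cells and a mark on all cells cannot be told apart.

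**Figure D1:**
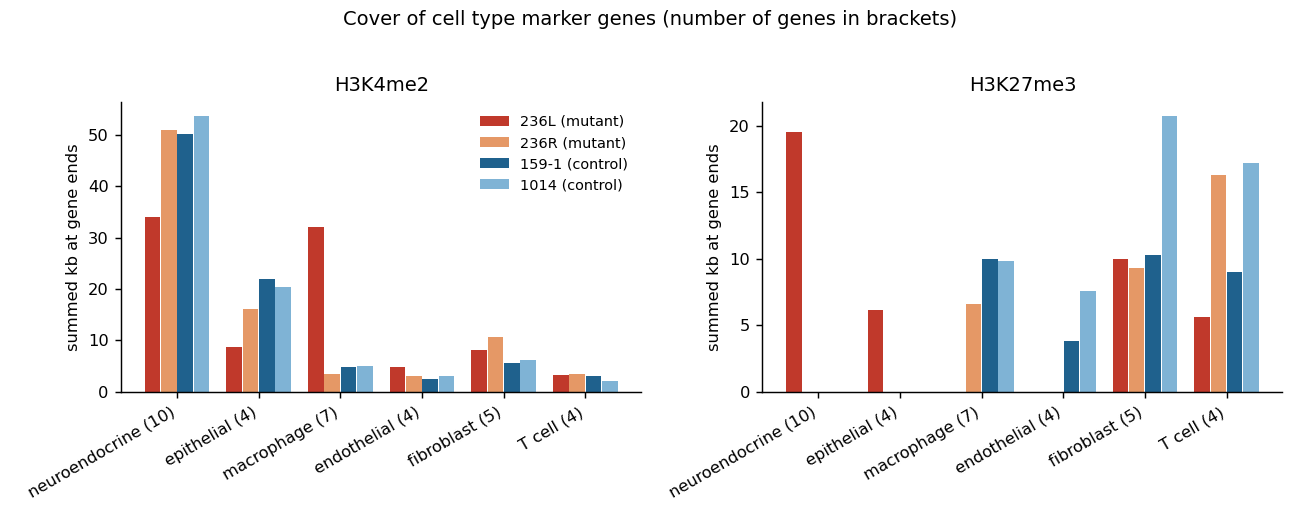
Summed kb of H3K4me2 (left) and H3K27me3 (right) within 2.5 kb of both gene ends of 6 marker lists, with 1 bar per line and the number of genes in brackets. Line 236L has the 32.1 kb macrophage bar for H3K4me2 and is the only line with H3K27me3 at the neuroendocrine and epithelial lists.

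Among the ligand genes, H3K4me2 was shorter in both mutant lines than in both control lines by at least 2 kb at Jag2, Dll1 and Dll3. Jag2, Dll1 and Dll3 were the 3 of 10 Notch genes called lower for this mark, against 6.37% of all genes, and 0 of 10 were called higher, against 1.36% of all genes. Over the 10 genes the median of the mutant mean minus the control mean was -2.04 kb for H3K4me2, beside a median of 0 over all genes. The 10 genes also had more cover to begin with, with medians of 6.88 and 8.08 kb in 236L and 236R and 10.5 and 10.03 kb in 159-1 and 1014, beside medians over all genes of 3.58 and 3.40 kb in the mutant lines and 3.53 and 3.59 kb in the control lines. Without 236L, 5 of the 10 were lower in 236R than in both control lines by at least 2 kb (Notch2, Dll1, Dll3, Jag2 and Hes1), against 9.65% of all genes. In 236L alone the 3 ligand genes were lower by this rule, against 11.5% of all genes, and Notch2, Jag1 and Hey1 were higher, against 10.3% of all genes.

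Jag2, a Jagged ligand (chromosome 12, 112907803 to 112929812), had the widest H3K4me2 separation in kb of the 10 genes. H3K4me2 covered 2.96 and 10.7 kb in 236L and 236R, against 16.9 and 16.03 kb in 159-1 and 1014. The mean was 6.83 ± 5.47 kb in the mutant lines and 16.5 ± 0.636 kb in the control lines (SD, n = 2 each), with a separation of -5.34 kb. Both mutant lines lay below both control lines, and 236L far below 236R. The peak over the Jag2 start site was 2.71 kb wide in 236L and 7.57 kb wide in 236R, against 14.2 kb in 159-1 and 14.1 kb in 1014. It ended 1.99 and 6.07 kb into the gene in the mutant lines, against 9.66 and 9.60 kb in the control lines. The 300 bases printed above were under H3K4me2 in all 4 lines, so the cover that differed lay to either side of them. H3K4me1 covered 4.70 and 17.5 kb in the mutant lines, against 20.8 and 21.9 kb in the control lines, with a separation of -3.37 kb. The window also holds the gene Nudt14, but within the Jag2 gene body alone H3K4me2 was 2.31 and 6.38 kb in the mutant lines, against 9.98 and 9.92 kb in the control lines.

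Dll1, the Delta-like ligand found in progenitor and neuroendocrine cells (chromosome 17, 15367354 to 15376932), also had less cover in both mutant lines than in both control lines. H3K4me2 covered 6.87 and 8.99 kb in 236L and 236R, against 12.1 and 12.2 kb in 159-1 and 1014, with means of 7.93 ± 1.50 and 12.2 ± 0.0438 kb (SD, n = 2 each) and a separation of -3.15 kb. The groups did not overlap, and the 2 control lines were within 0.1 kb of each other. The peak over the start site ended 3.84 and 5.28 kb into the gene in 236L and 236R, against 7.72 and 7.90 kb in the control lines. H3K4me1 at Dll1 covered 6.76 and 10.2 kb in the mutant lines, against 14.1 and 13.9 kb in the control lines, with a separation of -3.64 kb.

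Dll3, a Delta-like protein that inhibits Notch signalling within the cell that makes it and a marker of neuroendocrine small cell tumours (chromosome 7, 28293555 to 28301785), lay just past the 2 kb limit. H3K4me2 covered 6.64 and 8.96 kb in 236L and 236R, against 11.01 and 11.3 kb in 159-1 and 1014, with a separation of -2.05 kb. Most of this gap lay outside the gene, whose body had 2.37 and 2.94 kb in the mutant lines, against 3.18 and 3.44 kb in the control lines, and the window also holds Selenov and Timm50. H3K4me1 at Dll3 covered 5.95 and 8.87 kb in the mutant lines and 8.65 and 10.8 kb in the control lines, where the groups overlapped.

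Dll4, a Delta-like ligand best known from blood vessels (chromosome 2, 119325784 to 119335666), had 6.84 and 8.45 kb of H3K4me2 in 236L and 236R, against 10.0 and 8.80 kb in 159-1 and 1014. Its groups were separated by -0.35 kb, under the limit, and how many of all genes had H3K4me2 groups without overlap was not counted. Jag1, the other Jagged ligand (chromosome 2, 137081451 to 137116520), went the other way, with 6.89 and 4.74 kb in the mutant lines, against 4.55 and 4.14 kb in the control lines and a separation of 0.19 kb. Jag1 cover in 236R differed from that in 159-1 by less than 0.5 kb, so only 236L was clearly apart. The H3K4me2 peak over the Jag1 start site was 5.21 and 3.95 kb wide in the mutant lines, against 4.24 and 4.14 kb in the control lines.

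**Figure D2:**
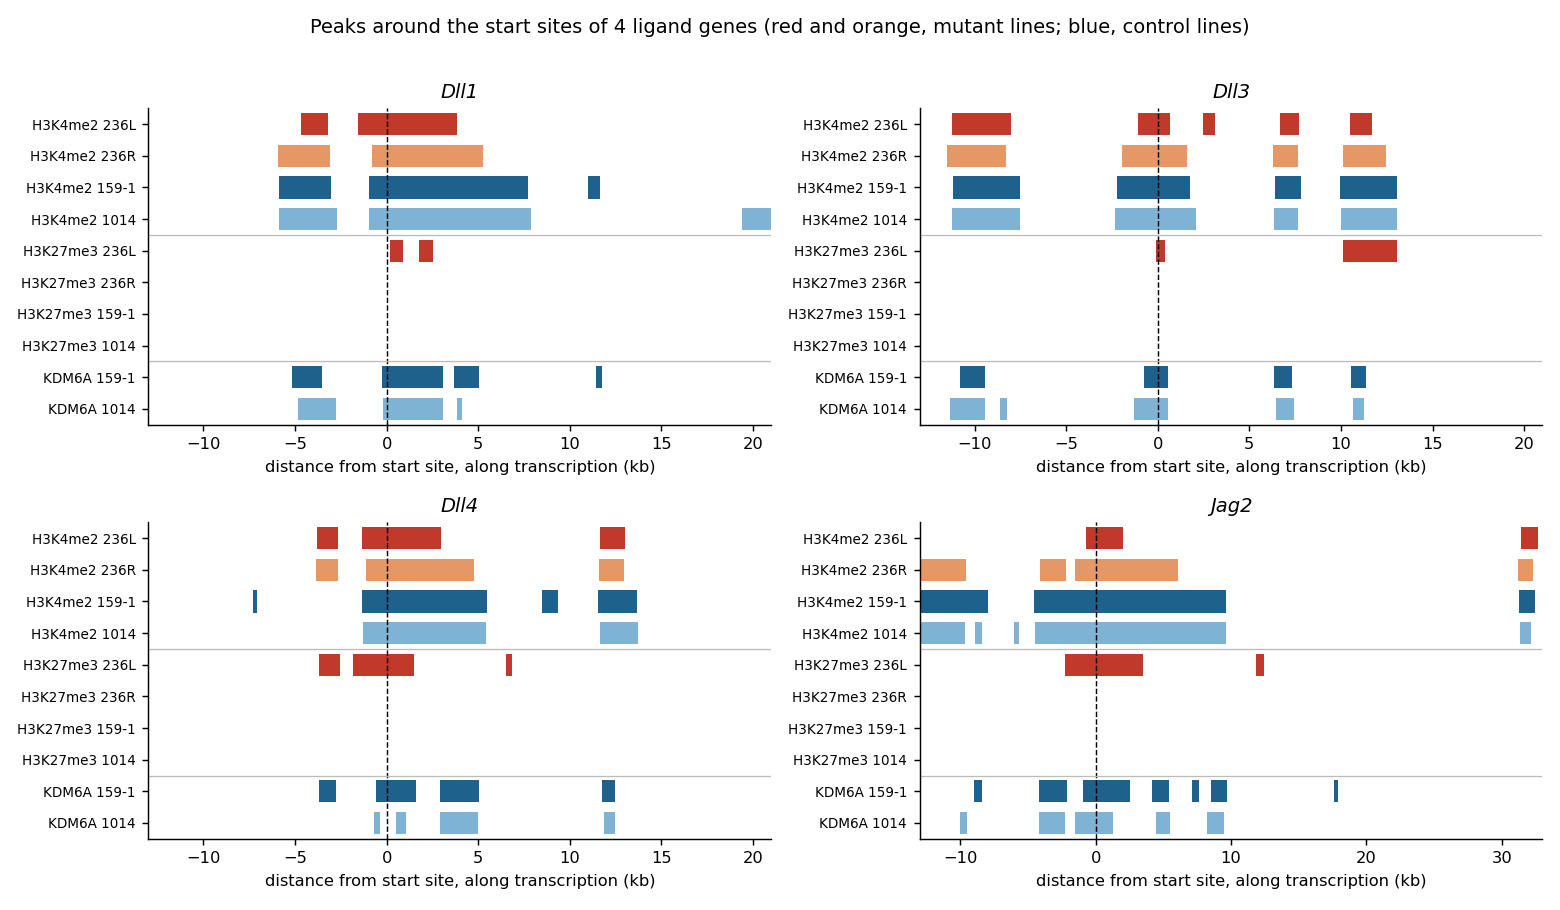
Peaks of H3K4me2, H3K27me3 and KDM6A (rows, 1 per line) around the start sites of Dll1, Dll3, Dll4 and Jag2, by distance from the start site along transcription in kb. The H3K4me2 peak over the Jag2 start site reaches 1.99 and 6.07 kb into the gene in 236L and 236R, against 9.66 and 9.60 kb in the control lines, and H3K27me3 peaks occur in 236L alone.

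The receptor genes showed no H3K4me2 call. Notch1 (chromosome 2, 26457902 to 26503822) had 8.08 and 6.08 kb in 236L and 236R, against 8.33 and 7.15 kb in 159-1 and 1014, so its groups overlapped. Notch3 (chromosome 17, 32120820 to 32166896) had 8.65 and 7.72 kb in the mutant lines, against 9.44 and 6.61 kb in the control lines. Notch2 (chromosome 3, 98013538 to 98150367) separated the 2 mutant lines from each other rather than the genotypes. H3K4me2 covered 19.1 kb of its window in 236L but 1.65 kb in 236R, against 13.996 and 12.3 kb in 159-1 and 1014. In 236R the Notch2 cover was a peak of 1.41 kb at the start site and a second of 0.242 kb, whereas 236L had 10 peaks and the control lines 13 and 10. That start site peak had a fold enrichment of 26.4, as the authors deposited it, above 99.8% of the peaks of the 236R list. H3K4me1 at Notch2 likewise put 236L highest and 236R lowest, with 47.7 and 0.847 kb in 236L and 236R, against 33.5 and 40.3 kb in 159-1 and 1014.

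Among the targets, Hes1, a repressor of proneural genes and the best known Notch target (chromosome 16, 30065357 to 30067796), had 10.0 and 8.44 kb of H3K4me2 in 236L and 236R, against 11.7 and 11.4 kb in 159-1 and 1014. Both mutant lines lay below both control lines with a separation of -1.33 kb, short of the limit. Most of the difference lay outside the gene body, which is 2.44 kb long and was covered for 2.44 and 2.32 kb in the mutant lines and for its whole length in both control lines. H3K4me1 at Hes1 lay the opposite way in this window, with 9.65 and 10.8 kb in the mutant lines, against 9.18 and 7.77 kb in the control lines and a separation of 0.46 kb. The mutant mean minus the control mean, 1.73 kb here, was -13.7 kb when the window had 50 kb on each side. Hey1, the other target (chromosome 3, 8663359 to 8667038), carried 1 H3K4me2 peak in each line, of 6.86 and 4.49 kb in 236L and 236R, against 4.53 and 4.57 kb in 159-1 and 1014. Hey1 cover in 236R thus lay within 0.1 kb of both control lines.

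**Figure D3:**
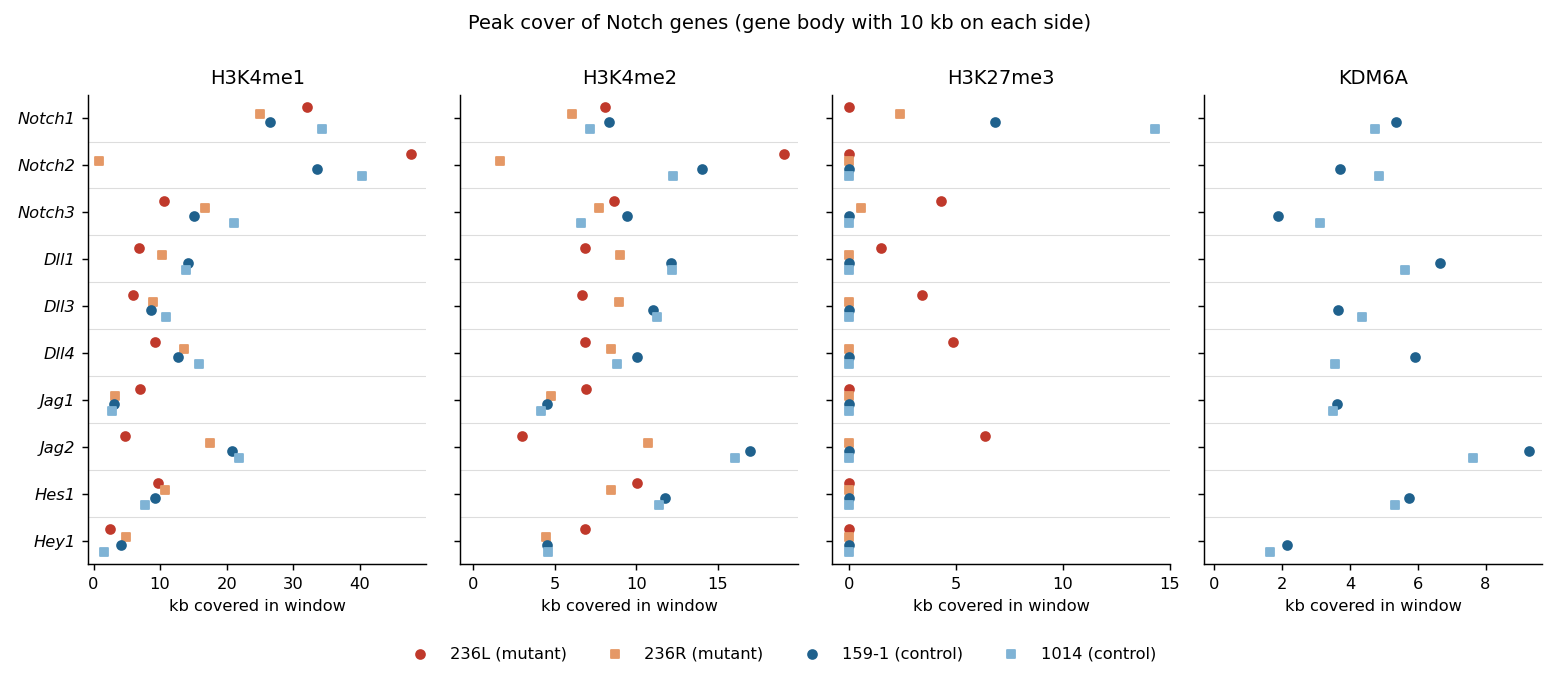
Length in kb covered by peaks in the window of each of the 10 Notch genes (rows) for H3K4me1, H3K4me2, H3K27me3 and KDM6A (panels), with 1 point per line, mutant lines above control lines. Mutant points lie left of control points at Jag2 and Dll1 for both H3K4me1 and H3K4me2, and Notch2 has 1.65 kb of H3K4me2 in 236R against 19.1 kb in 236L.

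For H3K4me1, Dll1 and Jag2 were the 2 genes called lower in the mutant lines, against 7.45% of all genes, and 0 were called higher, against 5.3% of all genes. The median of the mutant mean minus the control mean was -2.61 kb over the 10 genes and 0.20 kb over all genes. The count depended on single lines. In 236R alone Notch2, Dll1 and Jag2 were lower than both control lines by at least 2 kb, against 12.6% of all genes. In 236L alone 5 were lower (Notch3, Dll1, Dll3, Dll4 and Jag2), against 15.2% of all genes, and Notch2 and Jag1 were higher, against 29.7% of all genes. Against 1014 alone 5 were lower in both mutant lines (Notch1, Notch3, Dll1, Dll4 and Jag2), against 12.3% of all genes. Jag1 had 7.002 kb of H3K4me1 in 236L and 3.22 kb in 236R, against 3.04 and 2.70 kb in the control lines. The Jag1 window also holds the gene Slx4ip. In the Jag1 gene body alone the order was the opposite, with 2.47 and 2.65 kb in 236L and 236R, against 3.04 and 2.70 kb in 159-1 and 1014. In the windows the groups did not overlap for H3K4me1 at Jag1 (separation 0.17 kb) and Hes1, both under the limit, and overlapped at the other genes not called. How many of all genes had groups without overlap was not counted. Notch1 had 32.1 and 25.0 kb in 236L and 236R, against 26.5 and 34.3 kb in 159-1 and 1014. Notch3 had 10.6 and 16.7 kb in the mutant lines, against 15.0 and 21.1 kb in the control lines. Dll4 had 9.22 and 13.5 kb in the mutant lines, against 12.6 and 15.9 kb in the control lines, and Hey1 had 2.49 and 4.88 kb in the mutant lines, against 4.19 and 1.53 kb in the control lines.

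All 8 promoters were fully under H3K4me2 in all 4 lines, so their 300 bases could not tell the lines apart for this mark. Within 2.5 kb of the Jag2 start site H3K4me2 covered 2.71 and 4.33 kb in 236L and 236R, against 5 kb in both 159-1 and 1014. At Dll3 it covered 1.78 and 3.55 kb in the mutant lines, against 4.01 and 4.45 kb in the control lines. At Dll1 the groups overlapped, with 4.07 and 3.32 kb in the mutant lines, against 3.45 and 3.47 kb in the control lines. Of all promoters, H3K4me2 covered 47.6% in full in 236L and 47.3% in 236R, against 46.3% in 159-1 and 46.0% in 1014. H3K4me1 covered the whole 300 bases of 6 of the 8 in 236L and 3 in 236R, against 1 in 159-1 and 2 in 1014. Over all 32851 promoters the share covered in full was 15.7% in 236L and 15.95% in 236R, against 12.0% in 159-1 and 12.1% in 1014. The Notch3 promoter, covered in full in both mutant lines, was covered over 92% of its bases in 159-1 and 96.3% in 1014. The Dll1 promoter, for instance, was covered by H3K4me1 in full in 236L and over 40.7% of its bases in 236R, against none of its bases in 159-1 and 1014. The Jag2 promoter was covered in full in 236L, and not at all in 236R or in either control line.

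**Figure D4:**
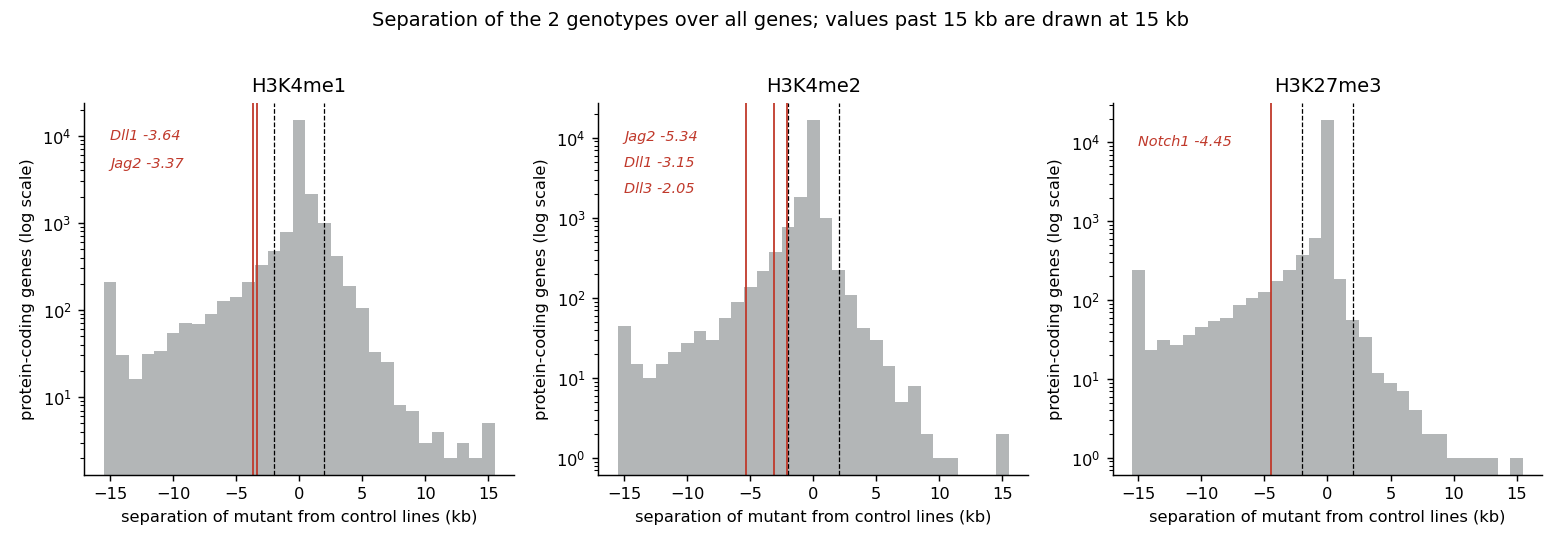
Separation of mutant from control lines in kb over all 21887 protein-coding genes (grey, log count axis) for H3K4me1, H3K4me2 and H3K27me3, with the called Notch genes as red lines and the 2 kb limits dashed. Jag2 lies at -5.34 kb for H3K4me2, inside a long lower tail that holds 6.37% of all genes past the limit.

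H3K27me3 lay over the start sites of Dll3, Dll4, Jag2 and Notch3 in 236L, and over that of Notch1 in 236R and both control lines. At Notch1 it covered 0 and 2.38 kb in 236L and 236R, against 6.82 and 14.3 kb in 159-1 and 1014. Notch1 was the 1 gene of the 10 called lower in the mutant lines, with a separation of -4.45 kb, against 6.43% of all genes, and 0 of the 10 were called higher, against 0.425% of all genes. In 236R alone Notch1 was again the 1 gene lower than both control lines by at least 2 kb, against 6.99% of all genes. The 236R peak ran from 0.368 kb before the Notch1 start site to 2.01 kb into the gene, and the control peaks over that site were 3.99 kb wide in 159-1 and 14.6 kb wide in 1014. The order of the lines at Notch1 is also that of their total H3K27me3 cover. When each list was reduced to the same covered length by its highest folds, Notch1 had 0 and 2.38 kb in the mutant lines, against 3.99 and 14.3 kb in the control lines, which no longer met the 2 kb limit.

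Notch1 was also the gene at which the active and the repressive mark shared bases in the control lines. H3K4me2 and H3K27me3 overlapped there over 0 and 2.38 kb in 236L and 236R, against 3.35 and 2.95 kb in 159-1 and 1014. By a minimum of 0.2 kb in each line, 0 of the 10 genes had such shared bases in both mutant lines, against 7.21% of all genes, and 1 (Notch1) had them in both control lines, against 8.16% of all genes. The 2 marks come from different libraries, so shared bases need not be on the same molecule.

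In 236L H3K27me3 lay at Jag2 (6.38 kb), Dll4 (4.85 kb), Notch3 (4.30 kb), Dll3 (3.42 kb) and Dll1 (1.50 kb), against 0 kb at each of these genes in both control lines. Line 236R had 0.562 kb at Notch3 and 0 kb at the 4 ligand genes. Notch2, Jag1, Hes1 and Hey1 had none in any line. The rule of at least 1 kb in 236L and none in either control line, which was chosen after these values were seen, was met by these 5 genes, against 5.04% of all genes. The same rule for 236R was met by 0 of the 10, against 2.12% of all genes. By a gap of at least 2 kb, Notch3, Dll3, Dll4 and Jag2 were higher in 236L than in both control lines, against 4.02% of all genes. The longest of these peaks was at Jag2 (chr12:112926015-112931799), 5.79 kb wide, with a deposited fold of 4.09 above 92.0% of the peaks of that list. It spans all of the Jag2 promoter printed above. The main Dll4 peak (chr2:119323936-119327301) was 3.37 kb wide, and the smaller Dll3 peak (chr7:28301395-28301875) covered 46.7% of the Dll3 promoter. H3K27me3 fully covered the promoters of Dll4, Jag2 and Notch3 in 236L, and that of Notch1 in each of the other 3 lines. Of all promoters it covered 5.15% in full in 236L and 3.67% in 236R, against 5.37% in 159-1 and 10.1% in 1014. The 236L peaks shared bases with H3K4me2 of the same line over 3.88 kb at Dll4, 2.90 kb at Notch3, 2.71 kb at Jag2, 1.69 kb at Dll3 and 1.50 kb at Dll1. H3K27me3 at neuroendocrine and epithelial markers and H3K4me2 at macrophage markers moved with these values in 236L, as given above, and their part in the result was not tested.

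KDM6A was mapped in the control lines alone, so it describes where the protein lay in lines wild type for Kdm6a and gives no comparison of genotypes. It covered part of the window of all 10 Notch genes in both control lines, against 62.3% of all genes. The median over the 10 genes was 4.53 kb in 159-1 and 4.56 kb in 1014, beside medians of 1.02 and 0.818 kb over all genes. As a share of the window this was a median of 10.99% in 159-1 and 9.58% in 1014 over the 10 genes, beside 1.81% and 1.39% over all genes. The genes are ordered by this share, which itself depends on window length. Hes1 had the shortest window (22.4 kb) and Notch2 the longest (156.8 kb). In kb, Jag2 had the most KDM6A of the 10 genes in both control lines. By share Hes1 was highest, with 5.73 kb (25.5% of its window) in 159-1 and 5.32 kb (23.7%) in 1014. Dll1 had 6.66 kb (22.5%) and 5.62 kb (19.0%), and Jag2 had 9.30 kb (22.1%) and 7.63 kb (18.2%), so Dll1 and Jag2 differed by less than either did between the lines. Dll4 had 5.93 kb (19.8%) in 159-1 but 3.57 kb (12.0%) in 1014, and Dll3 had 3.66 kb (13.0%) and 4.37 kb (15.5%), so their order turned between the lines. The Dll3 gene body alone held 1.55 and 1.53 kb of KDM6A in 159-1 and 1014, in a window that also holds Selenov and Timm50. Hey1 had 2.14 and 1.66 kb, Notch1 had 5.34 and 4.75 kb, and Jag1 had 3.62 and 3.51 kb, all between 6.38 and 9.02% of the window. Notch3, with 1.88 kb (2.85%) and 3.10 kb (4.70%), and Notch2, with 3.71 kb (2.37%) and 4.87 kb (3.10%), had the lowest shares. In either control line 79.0 to 100% of the KDM6A bases of each gene lay on H3K4me2, and 84.4 to 100% with the control H3K4me2 lists exchanged. KDM6A covered the whole promoter of 7 of the 8 genes in 159-1 and of 4 in 1014, against 23.8% and 21.3% of all promoters.

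The H3K4me2 that both mutant lines lacked lay mostly on bases that did not have KDM6A in both control lines. Over the 10 windows, 32.8 kb carried H3K4me2 and KDM6A in both control lines, and 7.67% of these bases had no H3K4me2 in either mutant line, beside 10.2% over the genome. Of the other 55.8 kb with H3K4me2 in both control lines, 30.0% had no H3K4me2 in either mutant line, beside 23.0% over the genome. Some of these other bases had KDM6A in a single control line, and all of them are called bases without KDM6A below. At Jag2 the share was 16.8% of bases with KDM6A in both control lines and 42.9% of the others. At Dll1 it was 0% and 37.3%, at Dll3 0% and 21.4%, and at Hes1 0% and 13.7%. Notch2 had the highest shares, 42.6% with KDM6A and 56.8% without. In 236R alone the shares over the 10 genes were 9.18% with KDM6A and 38.5% without, and in 236L alone 28.5% and 51.7%. Single genes differed in 236L. There the share was higher with KDM6A than without at Dll4 (59.4% and 20.8%) and Notch1 (64.6% and 47.8%), and lower at the other genes. At Jag2 it was 67.0% with KDM6A and 89.8% without in 236L. KDM6A covered 7 of the 8 promoters in full in 159-1, but 4 in 1014, where it was absent from 3. Every line had H3K4me2 at all 8, those without KDM6A included. Position and peak strength were not matched between bases with and without KDM6A, and their part in this difference was not tested.

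**Figure D5:**
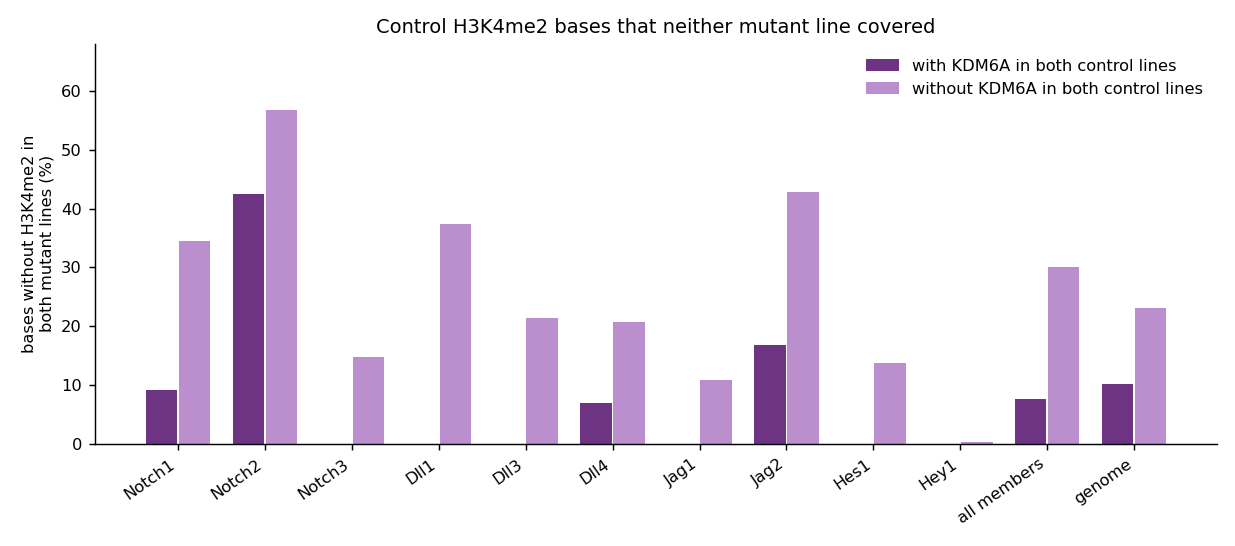
Share in percent of bases with H3K4me2 in both control lines that have none in either mutant line, at each Notch gene, over all 10 and over the genome. Bases with KDM6A in both control lines are set beside all others, which can have KDM6A in a single control line. The share over the 10 genes is 7.67% with KDM6A in both control lines and 30.0% for the others, and 10.2% and 23.0% over the genome.

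Among all 13632 genes with KDM6A in both control lines, 10.2% were called lower in the mutant lines for H3K4me2 and 11.3% for H3K4me1. The 3 of 10 and 2 of 10 Notch genes called lower stand beside these shares as well, since all 10 had KDM6A.

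The rest of the pathway was read from a list of 39 genes. For H3K4me2, 5 of the 39 were called lower in the mutant lines, against 6.37% of all genes, and 1 higher, against 1.36% of all genes. The list's median difference was -0.16 kb beside 0 over all genes. Maml3, a Mastermind coactivator of the cleaved receptor, had 35.5 and 41.1 kb in 236L and 236R, against 71.3 and 76.1 kb in 159-1 and 1014. Tle1, a Groucho corepressor that works with Hes proteins, had 8.20 and 4.64 kb in the mutant lines, against 13.4 and 14.6 kb in the control lines. Fbxw7, whose ubiquitin ligase targets the intracellular part of the receptor for breakdown, had 11.1 and 6.999 kb in the mutant lines, against 14.5 and 14.6 kb in the control lines. Pofut1, which puts O-fucose on Notch receptors, had 5.03 and 3.68 kb in the mutant lines, against 7.58 and 7.76 kb in the control lines. Maml2, the other Mastermind gene called, was the exception, with 17.9 and 11.2 kb in the mutant lines, against 7.26 and 5.77 kb in the control lines.

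At Maml2 all 3 histone marks separated the genotypes. H3K4me1 was 32.8 and 10.5 kb in 236L and 236R, against 2.503 and 5.99 kb in 159-1 and 1014, and H3K27me3 was absent in both mutant lines, against 5.30 and 6.62 kb in the control lines. Dlk1, a Delta-like protein outside the canonical ligands, was the other of the 2 genes of the list called lower for H3K27me3, with 1.11 and 7.56 kb in the mutant lines, against 12.7 and 24.0 kb in the control lines. The 2 of 39 stand against 6.43% of all genes. For H3K27me3 0 of the 39 were called higher, against 0.425% of all genes. For H3K4me1, 4 of the 39 were called higher, against 5.3% of all genes, and 3 lower, against 7.45% of all genes. Wide separations were found at Maml3 (-73.3 kb), the fringe glycosyltransferase gene Mfng (-5.11 kb), Maml2 (4.47 kb) and the Deltex ubiquitin ligase gene Dtx4 (4.38 kb). Maml3 had 34.3 and 77.8 kb of H3K4me1 in the mutant lines, against 151.0 and 185.8 kb in the control lines. KDM6A lay at 36 of the 39 genes in both control lines, against 62.3% of all genes. Notch4, Nrarp and Neurl1a, named after their values were seen, had at least 1 kb of H3K27me3 in 236L and none in either control line, with 1.98, 3.60 and 3.19 kb in 236L. These 3 of 39 stand against 5.04% of all genes.

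The genes whose cover was nearest to that of a Notch gene were sought over the 14 libraries by the mean absolute difference in kb, for 3 ligand genes. Jag2 was nearest to Jup, the gene of the junction protein plakoglobin (0.982 kb), the epithelial keratin gene Krt8 (1.58 kb) and Camkk1 (1.63 kb). Dll1 was nearest to Ier5l (0.673 kb), Tmem171 (0.732 kb) and Pllp (0.905 kb), and Dll3 to Zfp653 (0.687 kb), Fam104a (0.734 kb) and Atp6v0b (0.823 kb).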

How the data were processed

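ChIP-seq libraries of 24 samples are described, of which 14 have a peak list used here; the 10 input libraries have no list in the files used here. Per the submitters' processing notes, alignment to mm10 used Bowtie2 2.4.2 and peak calling used MACS3 3.0.0a7; threshold, control track and handling of duplicates: not given in the sources used here. Per the labels' protocols, chromatin for KDM6A was crosslinked with an additional agent, and H3K4me1 has input libraries of its own. Each list belongs to 1 library. For each broad peak the authors deposited a score, which was not used, a fold enrichment (a linear ratio, lowest 1.20) and −log10 p-values and −log10 q-values (lowest 1.01). The deposited fold ranked peaks within a list and the deposited −log10 q filtered them in 1 alternative.

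Peaks of a library were merged and the 337 peaks on other contigs left out. Gene windows came from the RefSeq table of GRCm38.p6, with 10 kb on each side of the gene body. Lines were compared as 2 mutant against 2 control lines by the separation rule of at least 2 kb, over all 21887 protein-coding genes. p-values here measure only the spread between these lines. Covers were computed with Python 3.11.15, numpy 2.4.6 and pandas 2.3.3 and tested on simulated peaks. No column of another sample was used (0 columns). The 10 genes and all gene lists were chosen with earlier results of these data known. Named beside the 10 genes were those of 39 other pathway genes called for H3K4me2 or H3K27me3, the 5 with the widest H3K4me1 separation, and the 3 nearest genes of 3 ligand genes. Alternatives were other windows (gene body alone, 2.5 kb at both gene ends with a separation of 1 kb, 50 kb on each side), a −log10 q of at least 3, equal covered length, separations of 1 and 5 kb, and each line left out. Of the genes this rule names, 1 is counted but not reported here.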

Additional observations from a re-analysis of the deposited data

How the results depend on the processing

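Of the differences of single genes recomputed under the alternatives, 238 moved by no more than the spread between lines and 32 by more. The 238 alone do not measure stability. They include H3K27me3 at Notch2, Jag1, Hes1 and Hey1, absent from the window in every line, with a difference of 0 kb throughout. A wide spread also hides moves: H3K4me1 at Notch2 went from -12.6 to 10.8 kb without 236R and is among the 238. The sign changed in 0 of 54 recomputed values of called differences and in 21 of 216 of differences not called. The 54 include values with a line left out. Those could not change sign, since a call needs all lines of 1 genotype to lie beyond those of the other. With 50 kb on each side the sign changed for H3K4me1 at 5 genes, among them Hes1 (-13.7 kb), Dll4 (4.33 kb), Dll3 (2.47 kb) and Hey1 (-5.49 kb), and for H3K4me2 at 3. Counts of the 10 genes moved as follows. Lower for H3K4me2 was 3, and became 2 for gene bodies (Dll3 lost), 0 at gene ends, 4 (Hes1 gained) with 50 kb on each side or a separation of 1 kb, 1 (Jag2) at 5 kb, and 3 to 5 with a line left out, the 5 being without 236L. Lower for H3K4me1 was 2, and became 1 for gene bodies (Jag2), 1 at gene ends (Notch3), 0 at 5 kb, 2 with 50 kb on each side (Notch3 and Dll1, with Jag2 lost) and 2 to 5 with a line left out, the 5 being without 236R or without 159-1. Lower for H3K27me3 was 1 (Notch1), and became 0 for gene bodies, at equal covered length and at 5 kb. Higher counts were 0. They became 1 (Hes1) for H3K4me1 at gene ends and 1 (Notch3) for H3K27me3 with 50 kb on each side. With a line left out they ran from 0 to 2 for H3K4me1, 0 to 3 for H3K4me2 and 0 to 4 for H3K27me3, the highest being without 236R each time. Genes with shared H3K4me2 and H3K27me3 were 0 in both mutant lines, 2 with 50 kb on each side, and 1 to 5 with a line left out (1 without 236L, 5 without 236R). In both control lines they were 1, and 2 with 50 kb on each side. The cause of these moves was not tested beyond what each alternative leaves out. KDM6A was in both control lines at all 10 genes, and at 9 with a −log10 q of at least 3 (Jag1 lost). Leaving out lines for the KDM6A and shared-base counts, and exchanging the control H3K4me2 lists for the shared bases of the control lines and for KDM6A on H3K4me2, were added after seeing the data. No paired analysis was possible because the replicate numbers only name the lines. Unknown depth limits every absence of a peak to what was not detectable in that library.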
